A study of Rattus norvegicus with 39 samples.

Results

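The mitochondrial respiratory chain is described here by the transcripts of its nuclear-encoded subunits, in rat livers sampled during hepatic ischemia-reperfusion. Members were taken by gene symbol alone: probe sets that the array annotation gives 1 symbol starting with Ndufa, Ndufb, Ndufc, Ndufs, Ndufv, Uqcr, Cox4i, Cox5, Cox6, Cox7, Cox8 or Atp5, together with Sdha, Sdhb, Sdhc, Sdhd and Cyc1, leaving out the Ndufaf assembly factors and symbols ending in -ps. This gave 86 genes on 89 probe sets, of 18891 genes with 1 symbol, and the probe set with the highest mean stood for each gene. They divide into 39 genes of complex I, 4 of complex II, 10 of complex III, 15 of complex IV and 18 of complex V.

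The animals were male Wistar rats of 5 to 6 weeks. In clamped animals the blood supply of the left and median lobes was stopped for 30 minutes of warm ischemia, and these lobes (reperfused) were taken with the right lobe of the same animal (non-ischemic) after 0, 0.5, 2 or 6 hr of reperfusion. Sham animals had the surgery without the stop in blood flow and were sampled at the same 4 times, and unoperated livers were also hybridized. Each of the 13 groups had 3 arrays, 39 in all, from 12 clamped, 12 sham and 3 unoperated animals. A sham and a clamped animal differ in the clamp, and any order in which the arrays were processed is not given in the sources used here, so a processing batch and the clamp cannot be told apart. The lobe taken from shams is not stated either. These are pieces of whole liver, in which fewer cells of a type and less RNA per cell cannot be told apart.

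The respiratory chain passes electrons from NADH and succinate to oxygen in the inner mitochondrial membrane and uses the resulting proton gradient to make ATP. Complex I takes electrons from NADH, complex II from succinate, complex III hands them to cytochrome c, complex IV reduces oxygen, and complex V is the ATP synthase. Complexes I, III, IV and V each hold some proteins encoded in mitochondrial DNA, which are not analysed here, and the other subunits are encoded in the nucleus. Hepatocytes are rich in mitochondria, and a clamped lobe has no oxygen to accept electrons until blood flow returns.

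Hepatocyte markers were present on every array: the mean log2 level of 9 hepatocyte markers lay between 16.93 and 17.17, and that of 8 striated muscle markers between 4.39 and 4.70. Array medians lay between 5.31 and 5.44. Some arrays stood apart in blood cell markers. The 5 red blood cell markers, as a mean deviation from their average over all arrays, reached 3.01 in replicate 1 of the reperfused lobes at 0.5 hr, and 7 neutrophil markers reached 1.61 in replicate 3 of the reperfused lobes at 6 hr and 1.05 in replicate 1 of the non-ischemic lobes at 6 hr. Shams lay between -1.06 and 0.30 for red blood cell markers and between -0.31 and 0.29 for neutrophil markers.

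A mean log2 level of at least 5, which 12647 of the 23409 probe sets reached, was reached by 77 of the 86 genes, including every member of complexes II and III. The other 9 were Ndufa4l2 (3.57) and Ndufb11b (3.02) in complex I, Cox4i2 (3.85), Cox7b2 (3.32), Cox8b (3.22) and Cox8c (3.84) in complex IV, and Atp5hl1 (4.59), Atp5mgl1 (3.58) and Atp5mgl4 (4.19) in complex V. Cox4i2, Cox8b and the others of that kind are forms known from lung, muscle, testis or hypoxic cells, and the mean of the 5 such genes stayed between 3.43 and 3.68 on all 39 arrays. Symbols that name near-copies of another member (Ndufb4l1, Ndufb4l3, Ndufb11b, Uqcr11l1, Cox7a2l2, Cox7cl1, Atp5hl1, Atp5mc1l2, Atp5mgl1 and Atp5mgl4) are uncertain, since a probe set for a copy may also bind the parent transcript. Atp5if1, an inhibitor of the ATP synthase, Cox7a2l, a factor joining complexes III and IV, and Ndufa4l2 carry member symbols without being structural subunits of the complex they are listed under.

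Most members varied little between groups. Over the 77 with a mean of at least 5, the difference between the highest and lowest of the 13 group means had a median of 0.60 on the log2 scale (range 0.31 to 1.62), where the 12647 probe sets at that level had a median of 0.82. The corresponding medians were 0.61 for complex I, 0.49 for complex II, 0.63 for complex III, 0.65 for complex IV and 0.59 for complex V, against 0.88 for cytosolic ribosomal proteins, 1.19 for proteasome subunits and 0.68 for mitochondrial ribosomal proteins. The spread within groups was alike, with a median SD of 0.204 for members and 0.215 for all probe sets at that level. Ndufa1 (1.62), Atp5f1e (1.49) and Cox7b (1.29) had the widest differences between group means.

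**Figure D1:**
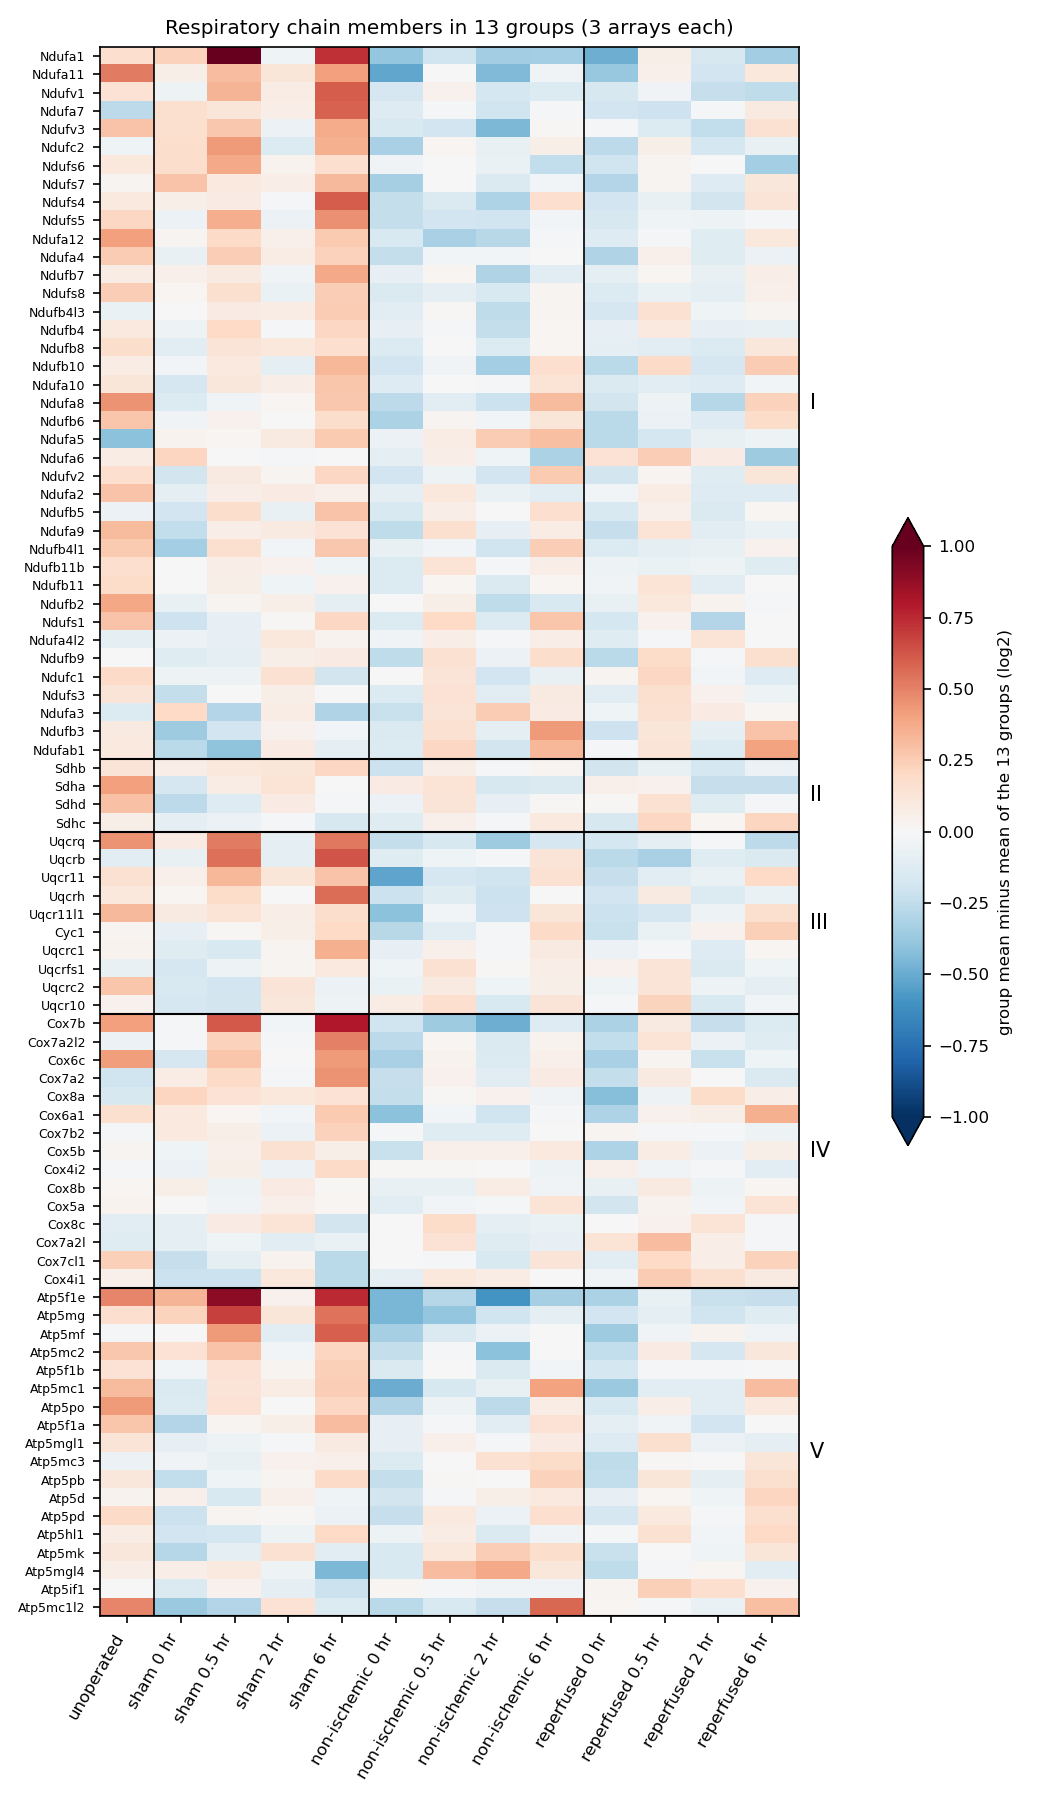
Mean log2 level of each member in each of the 13 groups (columns), shown as the difference from the mean of that member over all groups and ordered by complex (rows). Most members stay within a narrow range, and Ndufa1, Atp5f1e and Cox7b show the widest range.

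Some of the members on which the comparisons below turn are shown with the 250 bases before their start site, because they belong to different complexes, were all called lower in the comparison of clamped animals with shams given below, and were searched for motifs long linked to respiratory genes. Sequences are from RefSeq on build GRCr8, 5′ to 3′ on the coding strand. Capitals mark matches on either strand to GCGCANGCG (bound by NRF1, nuclear respiratory factor 1) or CCGGAAG (bound by ETS family factors such as GABP). The windows are chr3:183680173-183680422 (minus strand) for Atp5f1e, the epsilon subunit of the ATP synthase, chrX:121293556-121293805 (minus strand) for Ndufa1, an accessory subunit needed to assemble complex I, chr8:54130408-54130657 (minus strand) for Atp5mg, subunit g in the membrane part of the ATP synthase, chr10:38089979-38090228 (minus strand) for Uqcrq, a small subunit of complex III, chr9:1637364-1637613 (plus strand) for Ndufa11, a membrane subunit of complex I, and chr1:213833624-213833873 (minus strand) for Cox8a, a small subunit of complex IV.
Atp5f1e: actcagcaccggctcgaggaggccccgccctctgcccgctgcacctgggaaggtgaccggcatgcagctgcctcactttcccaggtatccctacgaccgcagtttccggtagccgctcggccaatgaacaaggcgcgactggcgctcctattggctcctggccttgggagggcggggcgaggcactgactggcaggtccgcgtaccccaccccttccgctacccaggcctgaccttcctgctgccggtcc
Ndufa1: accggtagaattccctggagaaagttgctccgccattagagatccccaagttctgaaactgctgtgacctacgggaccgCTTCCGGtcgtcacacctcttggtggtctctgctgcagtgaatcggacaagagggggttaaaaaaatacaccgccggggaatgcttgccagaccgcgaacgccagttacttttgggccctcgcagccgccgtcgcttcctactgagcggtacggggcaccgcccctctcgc
Atp5mg: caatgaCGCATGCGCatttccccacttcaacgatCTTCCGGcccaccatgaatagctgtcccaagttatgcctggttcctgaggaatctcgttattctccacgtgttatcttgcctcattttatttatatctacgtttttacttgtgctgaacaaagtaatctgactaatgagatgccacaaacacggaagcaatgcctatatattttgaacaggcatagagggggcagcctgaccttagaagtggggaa
Uqcrq: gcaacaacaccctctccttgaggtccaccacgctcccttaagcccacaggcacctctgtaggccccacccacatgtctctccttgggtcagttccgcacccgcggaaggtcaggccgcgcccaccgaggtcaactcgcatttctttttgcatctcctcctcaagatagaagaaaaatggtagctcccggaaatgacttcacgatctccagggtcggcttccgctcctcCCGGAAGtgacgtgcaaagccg
Ndufa11: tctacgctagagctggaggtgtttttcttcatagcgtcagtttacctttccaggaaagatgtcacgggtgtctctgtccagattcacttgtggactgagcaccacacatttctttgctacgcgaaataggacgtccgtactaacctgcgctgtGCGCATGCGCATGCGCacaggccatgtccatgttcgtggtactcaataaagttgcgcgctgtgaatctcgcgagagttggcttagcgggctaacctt
Cox8a: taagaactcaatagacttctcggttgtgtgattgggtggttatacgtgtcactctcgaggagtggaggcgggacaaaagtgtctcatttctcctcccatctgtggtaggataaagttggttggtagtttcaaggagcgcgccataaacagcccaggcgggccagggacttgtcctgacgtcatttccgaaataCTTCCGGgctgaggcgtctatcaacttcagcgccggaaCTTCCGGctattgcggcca

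The start site the table uses for Uqcrq lies inside the span that RefSeq gives for the gene (38086691 to 38093871), so its window is not the 5′ end of that span. Atp5f1e had neither motif in its window. The Ndufa1 promoter held an ETS match starting at position -171 from the start site, and Atp5mg held an NRF1 match at -244 and an ETS match at -216. Uqcrq had an ETS match at -22, Ndufa11 had overlapping NRF1 matches on both strands of which the first started at -97, and Cox8a had ETS matches at -57 and -19. Outside the printed windows, a further ETS match in Ndufa1 lay after the start site at 7, and a YY1 match in Cox8a (described next) crossed it from -4.

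Over the members, 74 of 86 had a promoter in the table, searched from 250 bases before to 50 after the start site on both strands. NRF1 matches were in 16 of these (21.6%) and in 5.8% of all 33469 promoters, ETS matches in 18 (24.3%) and in 8.75%, and matches to AAGATGGC, bound by YY1, in 14 (18.9%) and in 3.17%. At least 1 of the 3 motifs was in 40 of the 74 promoters (54.1%), in 15.7% of all promoters and in 19.4% of the 21842 promoters of protein-coding genes. A match describes letters in the window and is not a measured binding site.

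The first question of the design was whether the reperfused lobes differed from the non-ischemic lobes of the same animals. For the respiratory chain no difference passed the test at any time: 0 of 86 members were called at 0, 0.5, 2 and 6 hr (limma, q under 0.05, fitted and adjusted over all 23409 probe sets). The share called over all probe sets was itself 0% at 0 hr, 0.0513% at 0.5 hr, 0.0128% at 2 hr and 0% at 6 hr. Before adjustment 0, 4, 1 and 1 members had a p under 0.05. The median difference of reperfused minus non-ischemic was 0.01, 0.04, 0.05 and -0.04 on the log2 scale at the 4 times, and 83, 78, 78 and 81 of the 86 differences lay within 0.25 of 0. The median standard error was 0.133, 0.12, 0.138 and 0.168. In simulated data for the unpaired 6 hr comparison, 0% of changes of 0.5 and 59.5% of changes of 1 on the log2 scale were recovered, so differences of the size seen in these members were not detectable in that comparison. The other times and the paired fit were not simulated.

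The widest lobe differences were within 0.45 of 0 on the log2 scale. At 0 hr they ran from -0.21 in Ndufa5, of complex I, to 0.30 in Uqcr11, of complex III. At 0.5 hr they ran from -0.33 in Atp5mgl4 to 0.45 in Cox7b, at 2 hr from -0.36 in Atp5mgl4 to 0.38 in Atp5f1e, and at 6 hr from -0.35 in Ndufa5 to 0.37 in Cox6a1. The smallest q among the members was 1, 0.561, 0.618 and 0.951 at the 4 times by limma. Pairing the lobes by animal lowered these to 0.74, 0.213, 0.346 and 0.756 and again called 0 members, where 0%, 0.384%, 0.0555% and 0% of all probe sets were called, with 1, 9, 7 and 1 members at an unadjusted p under 0.05. The change of the lobe difference over the 4 times was called for 0 of 86 members, 1 at an unadjusted p under 0.05, where 0.239% of all probe sets were called.

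The second question was how each lobe stood against the 12 shams pooled over the 4 times, who were 1 set of control animals for all 8 comparisons. Few members were called. In the reperfused lobes 1 member was lower at 0 hr, 0 were called at 0.5 hr, 1 was lower at 2 hr, and 2 were lower and 1 higher at 6 hr. The shares over all probe sets were 0.0128%, 1.05%, 6.89% and 16.6%, and at 6 hr the 3 of 86 members (3.49%) stood against that 16.6%. Counted by direction, 0.00427% of all probe sets were lower at 0 hr, 2.94% lower at 2 hr, and 5.12% lower and 11.5% higher at 6 hr. In the non-ischemic lobes 0, 0 and 5 members were called at 0, 0.5 and 2 hr, all of them lower, and at 6 hr 2 were lower and 3 higher, where 0.00854%, 0.376%, 6.84% and 13.6% of all probe sets were called (2.94% lower at 2 hr, and 5.1% lower and 8.47% higher at 6 hr). The unadjusted p was under 0.05 for 36, 15, 15 and 16 members of the reperfused lobes by time, and for 31, 11, 26 and 14 of the non-ischemic lobes.

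At 0 hr, the end of ischemia, the members leaned low against the pooled shams in both lobes of clamped animals. The median difference from shams was -0.21 in the reperfused and -0.21 in the non-ischemic lobes, while the median over all probe sets was -0.01 in both, and 17 and 12 of the 86 differences were above 0. At 0.5 hr the medians were -0.04 and -0.05, at 2 hr -0.15 and -0.15, and at 6 hr -0.02 and 0.00. As a mean deviation from their average over all arrays, the members stood at -0.16, 0.05 and -0.03 in 0 hr shams. Shams of 6 hr stood at 0.18, 0.26 and 0.11. Lobes of 0 hr stood at -0.16, -0.05 and -0.26 (reperfused) or -0.12, -0.2 and -0.21 (non-ischemic), overlapping shams of that time. The part of sham time in the lean at 0 hr was not tested. The red blood cell markers stood higher in the reperfused lobes at 0 hr, by a median of 1.36 with 0 of 5 called, and higher by 0.44 in the non-ischemic lobes. Their part in the members' difference was not tested.

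The member called at 0 hr was Cox8a. Its log2 levels in the reperfused lobes at 0 hr were 6.25, 6.35 and 6.53, and in the 12 shams they ran from 6.82 through a median of 6.94 to 7.13. All 3 reperfused lobes lay below every sham, by -0.58 on average (SE 0.07, limma q = 0.0127). Since the test on these arrays gave the call, this separation is not separate evidence. The call was lost without replicate 1 of these lobes (q = 0.0665), and against the 3 shams of 0 hr alone the difference was -0.65 with q = 0.408.

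The non-ischemic lobes of the same animals measured 6.32, 6.50 and 6.90 for Cox8a, of which 1 lay among the shams and 2 below them (difference -0.38, q = 0.195 by limma). By 0.5 hr the reperfused lobes measured 6.70, 6.76 and 6.84. Later they measured 6.84, 7.05 and 7.07 (2 hr) or 6.73, 6.94 and 6.95 (6 hr). The reperfused lobes at 2 and 6 hr thus overlapped the shams, with differences of 0.03 and -0.08. Over the 4 times Cox8a was the 1 of 86 members whose level changed in the reperfused lobes (F = 13.5, limma q = 0.0106), where 15.6% of all probe sets changed, and 9 members had an unadjusted p under 0.05. The unoperated livers, at 6.54, 6.61 and 6.81, lay below every sham for Cox8a, by 0.30 (SE 0.0698, q = 0.0475), a call lost in 12 of 15 fits that left out 1 array.

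At 2 hr the calls were in complexes I, II and V. In the reperfused lobes Sdhb, the iron-sulfur subunit of complex II that passes electrons to ubiquinone, was lower by -0.30 (SE 0.0763, limma q = 0.0302), with values that overlapped the shams, and the call was lost without any 1 of the 3 lobes. In the non-ischemic lobes Atp5f1e was lower by -1.11 (SE 0.241, q = 0.0164), Ndufa11 by -0.66 (SE 0.126, q = 0.00937) and Ndufv3, at the NADH-oxidizing tip of complex I, by -0.63 (SE 0.143, q = 0.0188). Atp5mc2, which encodes a c-ring subunit of the ATP synthase, was lower by -0.56 (SE 0.129, q = 0.0204), and Ndufa12, an accessory subunit of complex I, by -0.41 (SE 0.101, q = 0.0261). Of these 5, Atp5mc2 overlapped the shams and the other 4 did not. All were picked by the test on the same arrays, so this separation is not separate evidence. All 5 calls were lost without replicate 2 of the non-ischemic lobes at 2 hr, those of Ndufv3, Atp5mc2 and Ndufa12 also without replicate 1, and that of Ndufa12 also without replicate 3. Against the 3 shams of 2 hr alone, 0 members were called in either lobe. There 0.726% of all probe sets were called in the reperfused and 0% in the non-ischemic lobes. Replicate 2 was the lowest of the 3 lobes for Atp5f1e (11.45), Ndufa11 (10.98), Ndufv3 (8.78) and Atp5mc2 (12.65), and replicate 3 was the lowest for Ndufa12 (6.74).

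At 6 hr Atp5f1e and Ndufs6, a zinc-binding accessory subunit of complex I, were lower than in shams in both lobes. Atp5f1e measured 12.06, 12.17 and 12.34 in the reperfused and 12.08, 12.09 and 12.09 in the non-ischemic lobes, where shams ran from 12.21 to 13.54. The 3 non-ischemic lobes lay below every sham, which is not separate evidence from the call on these arrays, and the reperfused lobes overlapped the lowest sham. The differences were -0.74 (SE 0.23, limma q = 0.037) and -0.85 (SE 0.227, q = 0.0223) for Atp5f1e, and -0.54 (SE 0.127, q = 0.00844) and -0.44 (SE 0.118, q = 0.024) for Ndufs6. Higher at 6 hr were Sdhc, a membrane anchor of complex II, in the reperfused lobes (0.30, SE 0.0982, q = 0.0468), and in the non-ischemic lobes Ndufb3, an accessory subunit of the membrane arm (0.56, SE 0.133, q = 0.0119), Ndufab1, the mitochondrial acyl carrier protein (0.50, SE 0.156, q = 0.0448), and the copy-like Atp5mc1l2 (0.73, SE 0.234, q = 0.0496). The Sdhc and Atp5mc1l2 calls were lost in 13 of the 15 fits that left out 1 array, the Ndufab1 call in 9 and the reperfused Atp5f1e call in 8. The Atp5f1e call of the non-ischemic lobes was lost without any 1 of the 3 lobes, the Ndufs6 calls without reperfused replicate 3 (q = 0.0697) or non-ischemic replicate 1 or 2 (q up to 0.156), and the Ndufb3 call without non-ischemic replicate 2 (q = 0.0842). Over the 4 times of the non-ischemic lobes, 3 members changed: Ndufab1 (F = 11.2, q = 0.0154), Cox5b of complex IV (F = 8.73, q = 0.0288) and Ndufa8 of complex I (F = 7.61, q = 0.0403). There 15.5% of all probe sets changed, and 17 members had an unadjusted p under 0.05.

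Other gene groups of the same organelle or of protein turnover were called at 6 hr more widely. In the reperfused lobes 113 of 177 cytosolic ribosomal protein genes were called higher than in shams and 0 lower (median 0.54), and 30 of 39 proteasome subunits higher and 0 lower (median 0.82). Of the mitochondrial ribosomal proteins, which translate the subunits encoded in mitochondrial DNA, 25 of 73 were higher and 1 lower (median 0.24). Of the assembly factors, which build the complexes, 11 of 42 were higher and 1 lower (median 0.31). The non-ischemic lobes gave 70, 29, 24 and 11 higher in the same 4 lists and 0, 0, 1 and 1 lower. These lists were not tested against the members.

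**Figure D2:**
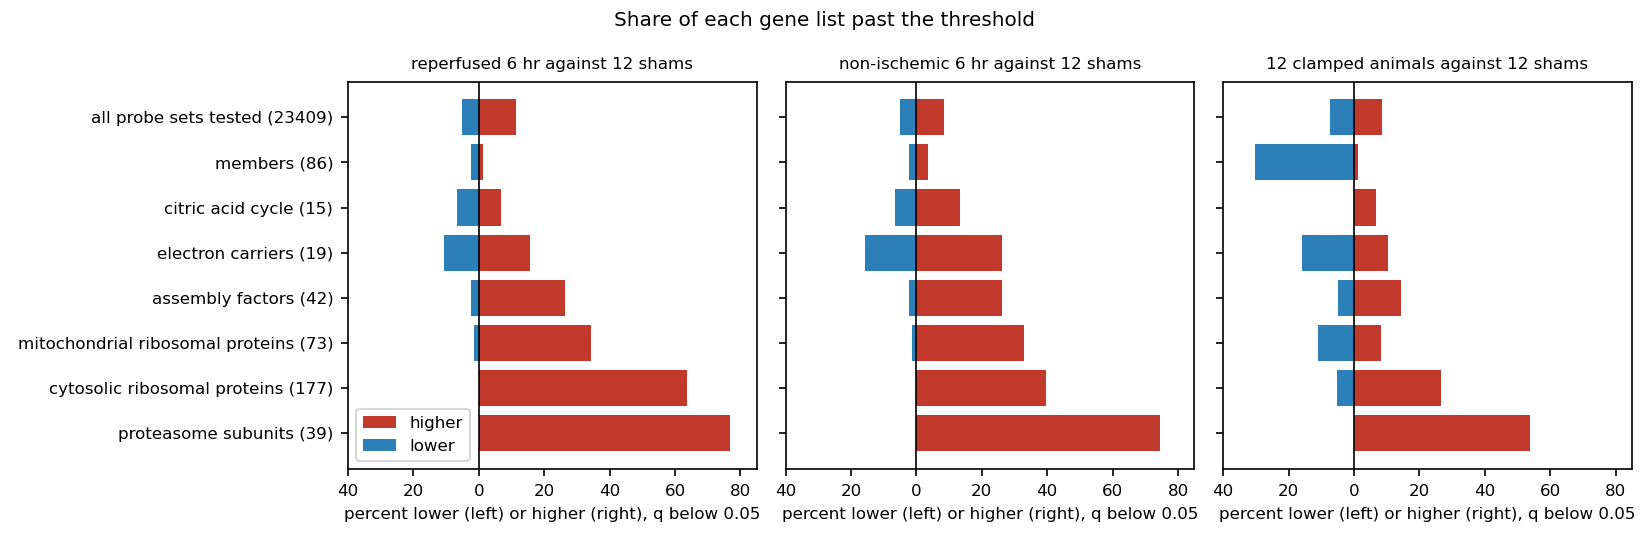
Percent of genes called lower (to the left) and higher (to the right) than shams (limma, q under 0.05) in the members and in the comparison lists, with 1 panel each for the reperfused lobes at 6 hr, the non-ischemic lobes at 6 hr and clamped animals over 4 times. Calls in cytosolic ribosomal protein and proteasome genes lie mostly to the right in each panel, those in mitochondrial ribosomal proteins lie on both sides in the panel of clamped animals (6 higher, 8 lower), and those in the members lie mostly to the left there (26 lower, 1 higher).

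Electron carriers and regulators outside the complexes were called in both directions at 6 hr. Of 19 carrier genes 3 were higher and 2 lower in the reperfused and 5 higher and 3 lower in the non-ischemic lobes, and of 15 regulators of mitochondrial biogenesis 4 were higher and 1 lower and 4 higher and 2 lower. Of 15 citric acid cycle genes 1 was higher and 1 lower in the reperfused and 2 higher and 1 lower in the non-ischemic lobes. Cycs, cytochrome c, was higher at 6 hr by 1.42 (SE 0.282, limma q = 0.00282) in the reperfused and by 1.15 (SE 0.287, q = 0.015) in the non-ischemic lobes. Coq8a, needed to make the carrier ubiquinone, was lower by -3.06 (SE 0.709, q = 0.00755) and -3.46 (SE 0.708, q = 0.00488). Ppargc1a, a coactivator that raises mitochondrial biogenesis, was lower at 6 hr by -2.49 (SE 0.61, q = 0.0106) in the reperfused and by -2.53 (SE 0.607, q = 0.0121) in the non-ischemic lobes. At 2 hr Ppargc1a was higher in the non-ischemic lobes by 2.63 (SE 0.634, q = 0.0235) and its difference in the reperfused lobes was 1.23 (SE 0.651, q = 0.29). Against shams of 2 hr alone, 0% of all probe sets were called in the non-ischemic lobes, so this Ppargc1a call was lost there. The differences in this paragraph are all from shams pooled over the 4 times, and differences from same-time shams are not given for these genes. Nrf1, the factor named above for its motif, was higher in the reperfused lobes at 2 hr by 0.46 (q = 0.0429) and at 6 hr by 0.58 (q = 0.00878).

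The most marked pattern in the subunits came from setting all clamped animals against all shams, a comparison added after values were seen. The 2 lobes of each clamped animal were averaged, which gave 12 clamped against 12 sham animals, with time in the fit. Here 26 of 86 members (30.2%) were lower and 1 was higher in clamped animals (limma, q under 0.05), where 7.21% of all probe sets were lower and 8.5% higher. Of all probe sets 15.7% were called, against 31.4% of the members, and among the 12647 probe sets with a mean of at least 5 the shares were 10.4% lower and 14.1% higher. The median difference was -0.09 for the members and 0.00 for all probe sets, and 26 of 86 members had a difference above 0. The unadjusted p was under 0.05 for 39 members. With time left out of the fit, 16 members were called, 15 of them lower, where 6.21% of all probe sets were called, 3.22% lower.

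The lower members came from every complex: 13 of 39 in complex I, 1 of 4 in complex II, 4 of 10 in complex III, 3 of 15 in complex IV and 5 of 18 in complex V. Of the 26, 22 were lower at each of the 4 times and the other 4, Uqcrb, Atp5mf, Ndufc2 and Cox8a, at 3 of them or fewer. Leaving out 1 animal at a time gave 23 to 31 calls, and 22 of the 26 were called in every such fit, all but Ndufs4, Ndufs5, Cox6c and Atp5f1b. With only the reperfused lobes 21 members were called, of which 3 were higher, and with only the non-ischemic lobes 27. There 13% and 13.1% of all probe sets were called. In both fits 16 members were lower. Both fits used the same shams, and lobes of the same clamped animals, so this overlap is not separate evidence. The corresponding counts over all called probe sets are not given here. Without replicate 1 of the clamped animals at 0.5 hr, where red blood cell markers stood out, 24 members were called, and without replicate 3 at 6 hr, where neutrophil markers stood out, 24.

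Cell type markers were called in the same comparison at 9 of 56 higher (16.1%) and 1 lower (1.79%), where 8.5% of all probe sets were higher and 7.21% lower. Of the marker lists, 2 of 9 hepatocyte, 2 of 7 Kupffer cell, 1 of 7 neutrophil, 2 of 6 cholangiocyte and 2 of 8 striated muscle genes were higher and 1 of 7 stellate cell genes was lower, while 0 of 7 endothelial and 0 of 5 red blood cell genes were called. The median differences lay between -0.06 and 0.15, apart from 0.35 for red blood cells. The hepatocyte median was -0.06, where the members' was -0.09. The part of cell composition in the members' difference was not tested.

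**Figure D3:**
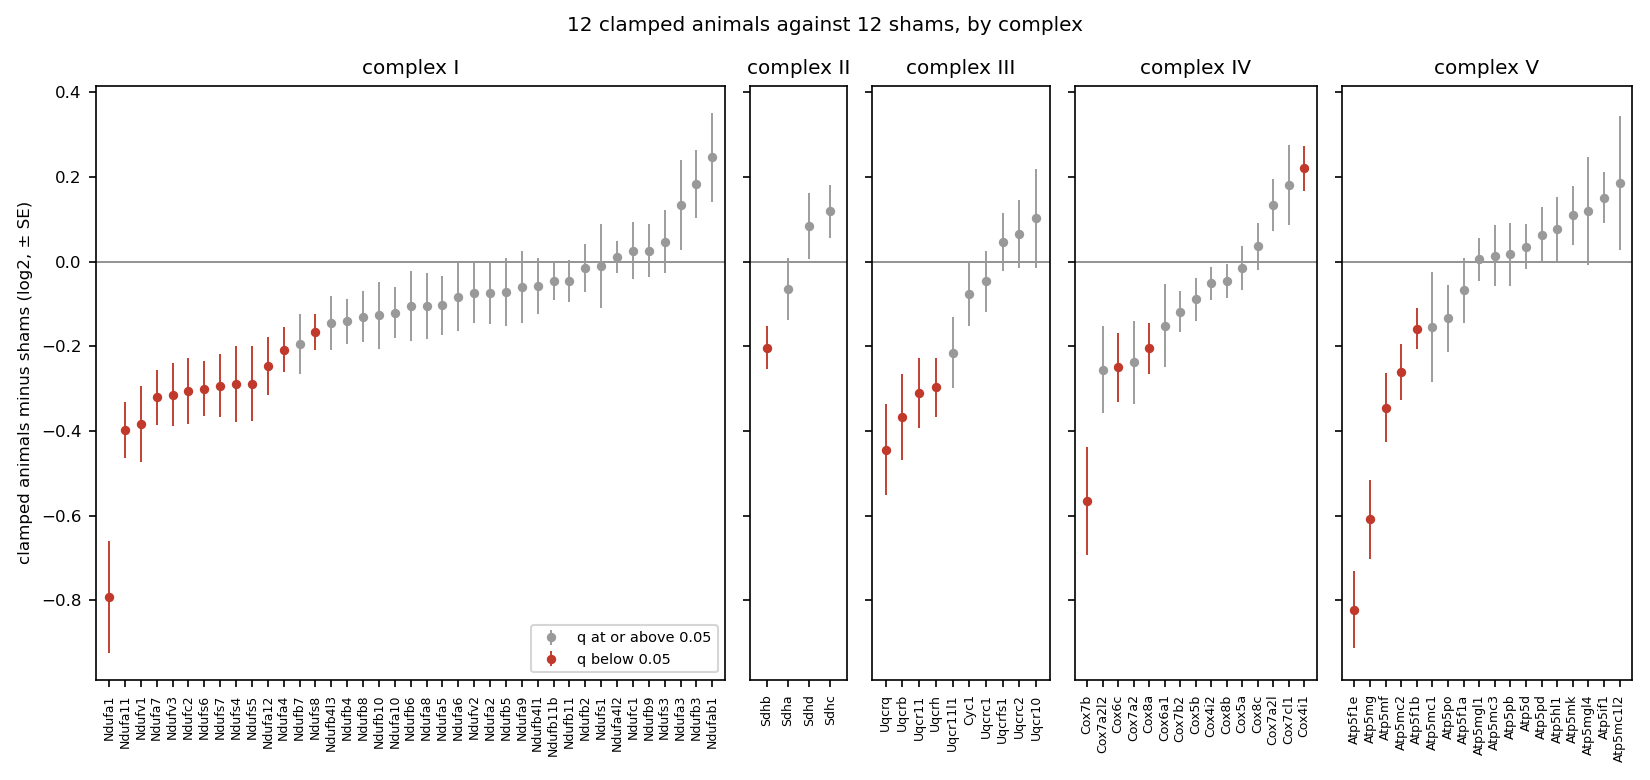
Difference in log2 level between clamped animals (mean of both lobes, n = 12) and shams (n = 12) for each member, by complex. Bars show 1 standard error, with members called by limma in red and the others in grey. The 26 lower calls reach from -0.82 in Atp5f1e to -0.16 in Atp5f1b, and Cox4i1, at 0.22, is the 1 higher call.

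In complex V the leading member was Atp5f1e, whose product is the epsilon subunit in the central stalk of the ATP synthase. Its log2 level ran from 11.82 through a median of 12.13 to 12.35 in the 12 clamped animals and from 12.21 through 12.98 to 13.54 in the 12 shams. Of the clamped animals 9 lay below every sham, and all 12 lay below the sham median. Atp5f1e and the other called members below were picked by the test on these arrays, so such counts are not separate evidence. Each clamped value is a mean of 2 arrays, while each sham value is 1 array. The difference was -0.82 (SE 0.0916, limma q = 0.000112), and by time it was -0.72, -1.07, -0.46 and -1.03 at 0, 0.5, 2 and 6 hr. With only the reperfused lobes it was -0.72 and with only the non-ischemic lobes -0.93 (q = 0.000269 and 4.63e-05).

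The single arrays behind this difference are listed for Atp5f1e, as a description and not as separate evidence. Shams measured 12.57, 12.97 and 12.75 at 0 hr and 13.43, 13.54 and 12.99 at 0.5 hr. They measured 12.37, 12.85 and 12.21 at 2 hr and 13.15, 13.26 and 13.10 at 6 hr. The unoperated livers were at 13.25, 12.69 and 12.78. Sham levels were thus higher at 0.5 and 6 hr than at 0 and 2 hr without overlap, which is where the differences from clamped animals were larger.

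The 24 lobes of clamped animals stayed within a narrower band for Atp5f1e. The non-ischemic lobes measured 12.04, 11.61 and 12.28 at 0 hr, 11.98, 12.12 and 12.33 at 0.5 hr, 12.13, 11.45 and 11.90 at 2 hr, and at 6 hr the 12.08, 12.09 and 12.09 given above. The reperfused lobes measured 12.25, 12.04 and 12.05 at 0 hr, 12.20, 12.49 and 12.37 at 0.5 hr, 12.13, 12.23 and 12.26 at 2 hr, and at 6 hr 12.34, 12.06 and 12.17. All 24 lay below the sham median of 12.98, and all lay below the lowest unoperated liver.

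Atp5mg, subunit g of the membrane part, had the next lowest difference in complex V. It ran from 6.86 through 7.18 to 7.60 in clamped animals and from 7.47 through 7.81 to 8.39 in shams, and 10 of 12 clamped animals lay below every sham. The difference was -0.61 (SE 0.0929, limma q = 0.000614), and by time -0.55, -0.92, -0.32 and -0.65. The unoperated livers measured 7.81, 7.46 and 7.58 for Atp5mg, of which 2 lay within the range of clamped animals and 2 within that of shams. Atp5mf, subunit f, was lower by -0.35 (q = 0.00769), Atp5mc2 by -0.26, and Atp5f1b, the catalytic beta subunit, by -0.16 (q = 0.0308). Atp5f1a, the alpha subunit that alternates with it, had a difference of -0.07 (SE 0.0761, q = 0.592) and Atp5if1, the inhibitor, 0.15 (SE 0.0595, q = 0.0892).

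In complex I the largest difference was in Ndufa1. It ran from 9.23 through 9.70 to 10.16 in clamped animals and from 9.68 through 10.63 to 11.36 in shams. The ranges overlapped, 5 clamped animals lay below every sham, and all 12 lay below the sham median. The difference was -0.79 (SE 0.132, limma q = 0.000877), and by time -0.67, -1.21, -0.22 and -1.07. The 3 shams of 0.5 hr, at 11.36, 11.06 and 11.10, were the highest of all arrays for Ndufa1, and the shams of 2 hr, at 9.85, 10.48 and 9.68, reached into the range of clamped animals. Of the unoperated livers, at 10.06, 10.69 and 9.88 for Ndufa1, 2 lay within that range and 1 above it, and all lay within the range of shams.

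Ndufa11, which sits in the membrane arm of complex I, had a difference that varied less with time. It ran from 11.08 through 11.48 to 11.83 in clamped animals and from 11.63 through 11.84 to 12.16 in shams, and 7 clamped animals lay below every sham. The difference was -0.40 (SE 0.0658, limma q = 0.000855), and by time -0.51, -0.28, -0.44 and -0.37. The unoperated livers measured 12.53, 11.75 and 12.24, of which 1 lay within the ranges of both clamped animals and shams, and the others above both.

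The core subunits of complex I encoded in the nucleus carry its flavin and iron-sulfur clusters, and 3 of 6 were lower. Ndufv1, which binds NADH and the flavin, was lower by -0.38 (SE 0.0895, limma q = 0.00706), Ndufs7 by -0.29 (SE 0.074, q = 0.0111) and Ndufs8 by -0.17 (SE 0.0421, q = 0.0109). The other lower members of complex I were accessory subunits, at differences from -0.32 in Ndufa7 to -0.21 in Ndufa4, which is now placed with complex IV. They included Ndufv3 (-0.31), Ndufc2 (-0.31), Ndufs6 (-0.30), Ndufs5 (-0.29), Ndufs4 (-0.29) and Ndufa12 (-0.25).

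**Figure D4:**
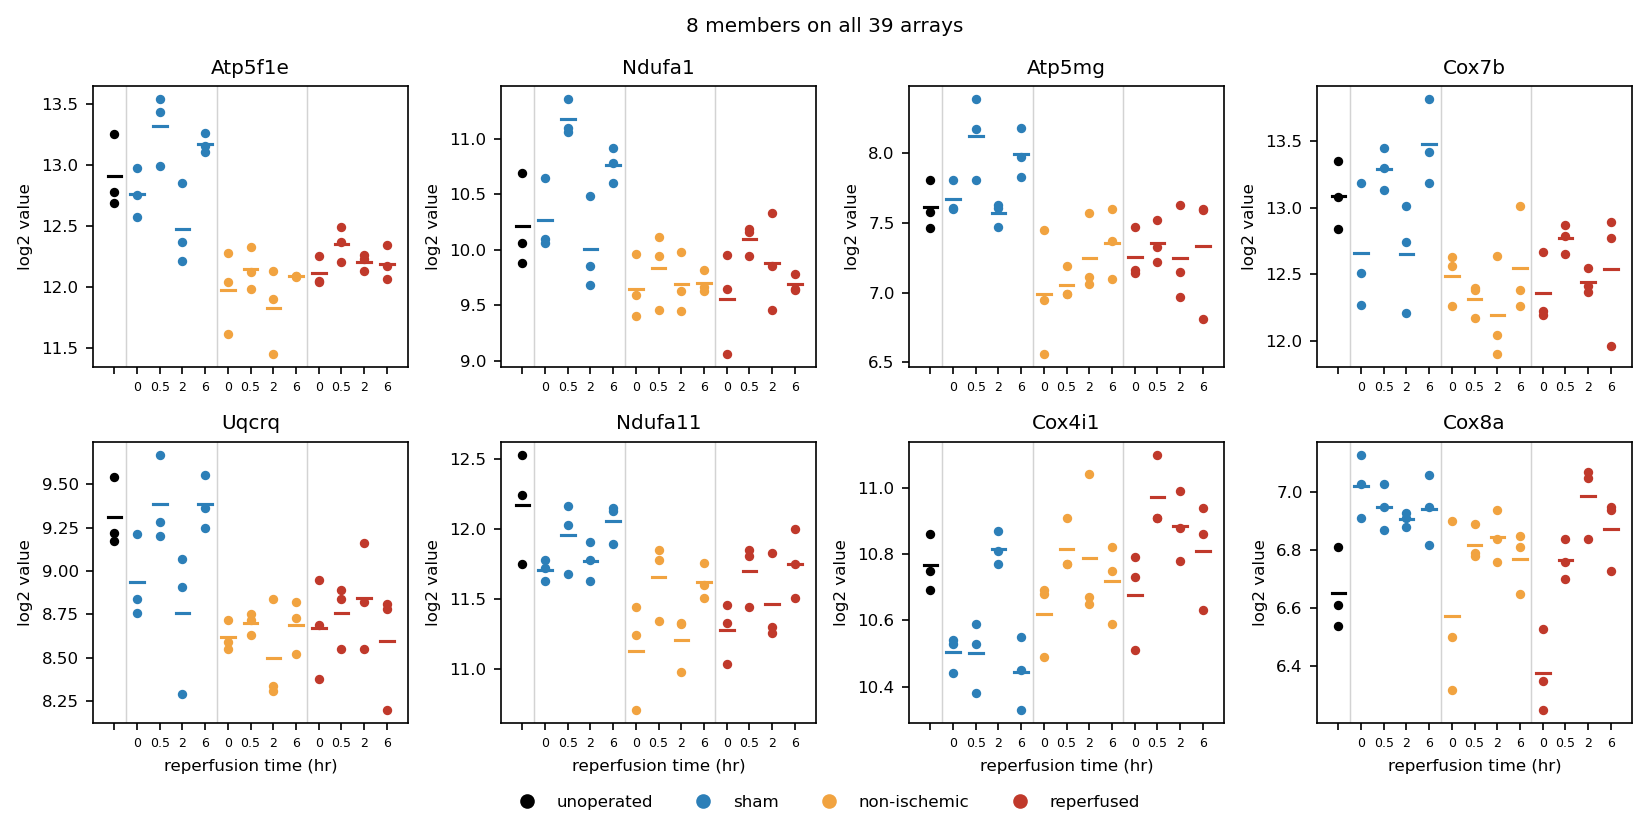
Log2 level of 8 members on each of the 39 arrays, by group, with a bar at each group mean. Averaged over both lobes, all 12 clamped animals lie below the sham median for Atp5f1e, Ndufa1, Atp5mg, Cox7b, Uqcrq and Ndufa11, though ranges overlap, 11 of 12 lie above it for Cox4i1, and Cox8a is lowest in reperfused lobes at 0 hr. The 8 members were called by the test on these arrays, so their positions are not separate evidence.

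In complex II, Sdhb was lower by -0.20 (SE 0.0509, limma q = 0.0103). It ran from 7.73 through 7.87 to 8.21 in clamped animals and from 7.91 through 8.12 to 8.30 in shams, with 6 clamped animals below every sham. Sdha, the flavoprotein that oxidizes succinate, had a difference of -0.06 (SE 0.0731, q = 0.599), and Sdhc of 0.12 (SE 0.0627, q = 0.209).

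In complex III the 4 lower members were small subunits around the cytochrome b core. Uqcrq was lower by -0.44 (SE 0.108, limma q = 0.0089), Uqcrb by -0.37 (SE 0.102, q = 0.0193), Uqcr11 by -0.31 (SE 0.0825, q = 0.0151) and Uqcrh by -0.30 (SE 0.07, q = 0.00749). For Uqcrq clamped animals ran from 8.36 through 8.71 to 9.0 and shams from 8.29 through 9.20 to 9.67. All 12 clamped animals lay below the sham median of Uqcrq, but 1 sham, replicate 3 at 2 hr, lay below them all. The unoperated livers, at 9.54, 9.22 and 9.17, lay above every clamped animal for Uqcrq and within the range of shams. Cyc1, cytochrome c1 of the catalytic core, had a difference of -0.08 (SE 0.076, q = 0.541).

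Complex IV was divided. Cox7b, a small subunit of the membrane part, was lower by -0.57 (SE 0.128, limma q = 0.00588). It ran from 12.11 through 12.49 to 12.95 in clamped animals and from 12.21 through 13.16 to 13.82 in shams, and 2 clamped animals lay below every sham. The unoperated livers measured 13.35, 12.84 and 13.08 for Cox7b, of which 1 lay within the range of clamped animals and all within that of shams. Cox6c was lower by -0.25 (SE 0.081, q = 0.0402) and Cox8a by -0.21 (SE 0.0595, q = 0.0242). Cox4i1, the form of subunit 4 found in most tissues, was the member called higher, by 0.22 (SE 0.0529, q = 0.00837). Its level ran from 10.50 through 10.81 to 11.02 in clamped animals and from 10.33 through 10.53 to 10.87 in shams, so that the ranges overlapped and 11 of 12 clamped animals lay above the sham median. The Cox4i1 differences were 0.14, 0.40, 0.02 and 0.32 at the 4 times. The 3 unoperated livers, at 10.86, 10.75 and 10.69, lay within the range of clamped animals and also within that of shams.

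The difference between clamped animals and shams changed with time for 2 of 86 members, where 5.24% of all probe sets did, and 12 had an unadjusted p under 0.05. For Cox8a it was -0.55 at 0 hr and -0.16, 0.01 and -0.12 later (F = 8.41, limma q = 0.0319). For the dim Cox4i2 it was 0.09, -0.08, 0.05 and -0.27 (F = 9.14, q = 0.0256). For the 26 lower members apart from Cox8a a change of the difference with time was not called, which does not show that it was the same at each time.

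The comparison lists were divided otherwise between clamped animals and shams. Of the cytosolic ribosomal proteins 47 of 177 were higher and 9 lower (median 0.18), of the proteasome subunits 21 of 39 higher and 0 lower (median 0.40), and of the mitochondrial ribosomal proteins 6 of 73 higher and 8 lower (median 0.01). Of 42 assembly factors 6 were higher and 2 lower. Cox17, the copper chaperone that supplies complex IV, was higher by 0.51 (SE 0.0721, limma q = 0.000299), and Cox10, which makes its heme, by 0.40 (q = 0.014). Tmem70, which helps assemble the ATP synthase, was lower by -0.34 (q = 0.0101) and Pet100, of complex IV assembly, by -0.31 (q = 0.029). Cycs was higher by 0.62 (SE 0.125, q = 0.00274), Nrf1 by 0.29 (SE 0.0514, q = 0.00138) and Idh3a, of the citric acid cycle, by 0.45 (q = 0.0182), while Coq8a was lower by -1.06 (q = 0.0192) and Yy1 by -0.22 (q = 0.0248). In all, 2 of 19 electron carrier genes were higher and 3 lower, 1 of 15 regulators higher and 1 lower, and 1 of 15 citric acid cycle genes higher and 0 lower. Of all probe sets 8.5% were higher and 7.21% lower.

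The motifs were set beside these calls without a test. Of the 26 lower members 23 had a promoter in the table, and 16 of these (69.6%) held at least 1 of the 3 motifs: 7 held NRF1, 7 ETS and 5 YY1 matches. Of the 51 other members with a promoter 24 (47.1%) held at least 1: 9 held NRF1, 11 ETS and 9 YY1 matches. Atp5f1e, the member with the largest difference, was among those without a match.

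The shams themselves differed by time. At 6 hr, 5 of 86 members were higher than in the shams of the 3 earlier times and 0 lower (limma, q under 0.05), where 6.27% of all probe sets were called, 3.45% higher, and 24 had an unadjusted p under 0.05. Ndufs4 was higher by 0.56 (SE 0.12, q = 0.0162), Uqcrh by 0.49 (SE 0.104, q = 0.0157), Ndufa7 by 0.47 (SE 0.1, q = 0.017), Uqcrc1, a core protein of complex III, by 0.44 (SE 0.0987, q = 0.0198) and Ndufb7 by 0.34 (SE 0.0917, q = 0.0463). For none of the 5 did the 6 hr shams overlap the earlier ones. The 5 were picked by the test on the same arrays, so this separation is not separate evidence. The members' median difference was 0.17 with 68 of 86 above 0. The calls depended on single 6 hr shams: those of Ndufs4 and Uqcrc1 were lost without replicate 1 or 2, that of Uqcrh without replicate 2, that of Ndufa7 without any 1 of the 3, and that of Ndufb7 in 10 of 12 fits that left out 1 array. Ndufs4 measured 9.91, 10.10 and 9.72 in the 6 hr shams and 9.14 to 9.71 in the earlier ones. Against unoperated livers 1 of 86 members differed in the pooled shams, Cox8a as given above, where 1.25% of all probe sets were called, 0.303% higher, and 14 members had an unadjusted p under 0.05. The members' median difference there was -0.07.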

How the data were processed

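RNA of rat liver was hybridized to 1-colour Affymetrix arrays, 1 array per sample. The deposited intensity values were linear, summarised and normalized by the authors (RMA with signal space transformation, Affymetrix Expression Console 1.0, per the labels), for 23409 probe sets. Here log2 was taken with no further normalization, so values are relative within each probe set and levels of different probe sets are not compared. The annotation gave 1 gene symbol for 19778 probe sets, several for 419 and no symbol for 3212. Precision is limited by having 3 arrays in a group.

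Groups were compared with limma 3.58.1 in R 4.3.3 over all probe sets, with Benjamini-Hochberg adjustment (q under 0.05): reperfused against non-ischemic lobes, each lobe against pooled shams, shams by time and against unoperated livers, and F-tests over the 4 times. Clamped animals against shams, and its change with time, were added after values were seen. The tests were tested on simulated data: of changes of 0.5 on the log2 scale, 86.5% were recovered for clamped animals against shams. The simulation drew the 2 lobes of an animal independently, so this share is likely too high where lobes correlate. Lobes are paired by animal: the deviations of the 2 lobes of an animal from their group means correlated between 0.142 and 0.842 in the 12 animals. Shams are other animals. The members and gene lists were chosen with earlier results of these data known. Named genes are all members called in a comparison, members with the widest differences, and members of the other lists called or chosen after their values were seen. Alternatives were filters, quantile normalization, other sets of shams, a fit to all operated animals and leaving out each array. RefSeq matched 85 of 86 members by Entrez ID.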

Additional observations from a re-analysis of the deposited data

Results flagged for a closer look

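For 2 members the difference between clamped animals and shams itself differed between the 4 times, by the test of group by time in limma. Cox8a (q = 0.0319) was lower at 0 hr by -0.55 and had differences of -0.16, 0.01 and -0.12 at 0.5, 2 and 6 hr. Leaving out 1 animal at a time gave q from 0.019 to 0.078, past the threshold in all but 8 of 24 fits. Cox4i2 (q = 0.0256), a form of subunit 4 known from lung, had differences of 0.09, -0.08, 0.05 and -0.27 at the same times, on a probe set with a mean log2 level of 3.85, and leaving out 1 animal gave q from 0.0234 to 0.0657, past the threshold in all but 2 of 24 fits. With only the non-ischemic lobes neither was called.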

How the results depend on the processing

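The comparisons of reperfused with non-ischemic lobes, and the change of that difference with time, gave 0 called members under every alternative run, with the animal as a replicate block (0 at each of the 4 times) and without any 1 replicate included. A block could not be fitted for lobes against shams, which are different animals. Counts against pooled shams moved more. Reperfused lobes at 0 hr: 1 member, against 0 with the interquartile range filter, 12 in 1 fit over the 36 arrays from operated animals, 0 against shams of the same time and 0 to 1 leaving out 1 array. Reperfused lobes at 0.5 hr gave 0, against 1 with quantile normalization, 5 in the 36-array fit, 3 against same-time shams and 0 to 1. Reperfused lobes at 2 hr gave 1, against 2 with the interquartile range filter, 3 with a mean level of at least 5, 3 with quantile normalization, 0 with a trended robust fit, 8 in the 36-array fit, 0 against same-time shams and 0 to 4. Reperfused lobes at 6 hr gave 3, against 7 with a mean of at least 5, 6 with quantile normalization, 14 in the 36-array fit, 6 against same-time shams and 1 to 6. Non-ischemic lobes at 0 hr gave 0, against 12 in the 36-array fit and 0 to 1; at 0.5 hr 0, against 1 with either filter, 6 in the 36-array fit, 6 against same-time shams and 0 to 1. Non-ischemic lobes at 2 hr gave 5, against 8 with a mean of at least 5, 16 in the 36-array fit, 0 against same-time shams and 0 to 10; at 6 hr 5, against 9 with same-time shams and 0 to 6. The 6 hr shams gave 5, against 3 with the interquartile range filter and 0 to 7. Shams against unoperated livers gave 1, against 0 with either filter or the trended fit, 2 with quantile normalization and 0 to 3. Over the 4 times the reperfused lobes gave 1, against 0 with the interquartile range filter and 1 to 6, and the non-ischemic lobes 3, against 6 with quantile normalization, 1 with the trended fit and 1 to 5. Clamped animals against shams gave 27, against 16 with time left out of the fit and 23 to 31 leaving out 1 animal. Its change with time gave 2, against 0 with the interquartile range filter, 1 with a mean of at least 5, 0 with only the non-ischemic lobes and 1 to 5. Against same-time shams, 0%, 4.57%, 0.726% and 9.68% of all probe sets were called in the reperfused lobes at 0, 0.5, 2 and 6 hr. In the non-ischemic lobes 0%, 5.4%, 0% and 7.45% were called at these times. No named member changed direction. The cause of these moves was not tested.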
